A study of Mus musculus with 16 samples.

Results

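The genes described here are 31 mouse genes of fatty acid oxidation, of ketone body metabolism and of the response to PPARalpha, among the 55359 genes counted in the duodenum and ileum of Neurog3 mutant mice and their controls. They form a list of gene symbols, and all 31 were found in the count table through their Ensembl identifiers. RNA sequencing covered 16 libraries from 8 adult C57BL/6N males on standard chow, with 4 libraries in each of 4 groups. Mutants were Neurog3f/f; Villin-CreERT2 mice, in which a tamoxifen-activated Cre recombinase under the promoter of Villin, a gene of the gut epithelium, can delete the floxed Neurog3 gene. Neurog3 is the factor that gut progenitors need to become enteroendocrine cells, the hormone-secreting cells of the gut. Controls were Neurog3f/f mice that carried the same floxed alleles without the Cre transgene, so an effect of the transgene and an effect of Neurog3 loss cannot be told apart. Tissue came 18 weeks after tamoxifen, a time that the labels state for both genotypes together. Each animal gave both tissues, and the animals are called as in the labels, NFVCT27, NFVCT38, NFVCT153 and NFVCT190 for mutants and NF17, NF29, NF32 and NF152 for controls. Wherever 4 values follow each other, they stand in that order of animals. No source used here names the layers of the gut wall that were taken.

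Fatty acids enter mitochondria as carnitine esters and are then shortened in cycles of dehydrogenation, hydration, a further dehydrogenation and thiolysis, which release acetyl-CoA and reduced electron carriers. Peroxisomes shorten very long and branched chains, and microsomal CYP4A enzymes hydroxylate the far end of the chain. PPARalpha is a nuclear receptor for fatty acids that binds DNA together with RXR and raises many of these genes in liver and gut during fasting or fat feeding. Enterocytes meet dietary fat in the upper small intestine, where they oxidise a part of it and can form ketone bodies.

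Total counts per library ran from 8213889 to 35076714. Neurog3 had 0 counts in all 8 mutant libraries and 8 to 37 counts in each of the 8 control libraries. Enteroendocrine markers summed to 3.37 to 4.80 CPM in mutant ileum, 197 to 286 CPM in control ileum, 4.14 to 18.4 CPM in mutant duodenum and 355 to 528 CPM in control duodenum. The tissue labels could be checked against regional genes. Summed over 5 ileal genes such as Fabp6 and Slc10a2, the level was 2094 to 3377 CPM (counts relative to TMM-scaled library size) in mutant ileum, 3715 to 6089 CPM in control ileum, 88.1 to 247 CPM in mutant duodenum and 164 to 268 CPM in control duodenum. Other tissues and cell types contributed unequally to the libraries. Pancreatic acinar genes took 2.22% to 20.8% of counts in mutant duodenum and 7.58% to 16.6% in control duodenum, against at most 1.23% in any ileal library. In every ileal library Zg16 had the most counts of these genes. In control ileum of NF152 it had 70582, against 4160 for Pnlip, the next. In control ileum of NF17 it had 98199, against 38702 for Pnlip and 27514 for Cel. The weight of Zg16 in this list thus differed between ileal libraries, and the part of pancreatic RNA in the ileal values was not tested. The mutant duodenum library of NFVCT190 stood apart, with the highest acinar share and the lowest summed level of 11 enterocyte markers, 16834 CPM. Smooth muscle markers were higher in mutant ileum, where 6 of 9 passed the test, with sums of 4509.6 to 6096 CPM in mutants and 2605 to 3789 CPM in controls. T and NK cell markers had 12 of 12 below 0 in mutants of either tissue, with 3 called lower in the ileum and 4 in the duodenum. They summed to 45.0 to 171 CPM in mutant ileum, 138 to 225 CPM in control ileum, 67.6 to 163 CPM in mutant duodenum and 274 to 379 CPM in control duodenum. All of these are whole-tissue RNA, in which fewer cells of a type and less RNA per cell cannot be told apart.

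Between mutants and controls, none of the listed genes passed the test in either tissue, while 58 genes of all kinds did in the duodenum and 490 in the ileum. In the duodenum, 29 of the 31 genes had enough counts to be tested and 0 of 29 were called at an adjusted p under 0.05 (edgeR's quasi-likelihood test, Benjamini-Hochberg), against 0.394% of all 14703 genes tested. At an unadjusted p under 0.05 there was 1 of 29, Acaa1b, against 8.71% of all genes. DESeq2 called 0 of them, with 2.11% of all genes called, and limma-voom called 0, with 0.367% of all genes called. In the ileum, 28 of the 31 were tested and 0 were called, against 3.28% of all 14951 genes tested. At an unadjusted p under 0.05 there were 5 of 28 (Vnn1, Slc25a20, Ppargc1a, Acadl and Cpt2), against 15.8% of all genes, a share close to the background. DESeq2 called 1 of 28 ileal genes, Vnn1, with 5.86% of all genes called. Limma-voom called 0, with 2.89% of all genes called. With no filter on low counts, edgeR called 4 in the ileum (Acadl, Ppargc1a and Slc25a20 higher and Vnn1 lower in mutants), with 3.72% of all genes called. The median log2 fold change, mutant over control, was 0.11 over the listed genes in the ileum, where 20 lay above 0 and 8 below, and -0.09 in the duodenum, where 8 lay above and 21 below; the medians of all genes tested were within 0.01 of 0. Scaled to epithelial markers, 0 were called in the duodenum, but 15 of 29 had an unadjusted p under 0.05, against 19.8% of all genes. That scaling moved the median of all duodenal genes to -0.26 and that of the listed genes to -0.36, with 4 above 0 and 25 below.

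**Figure D1:**
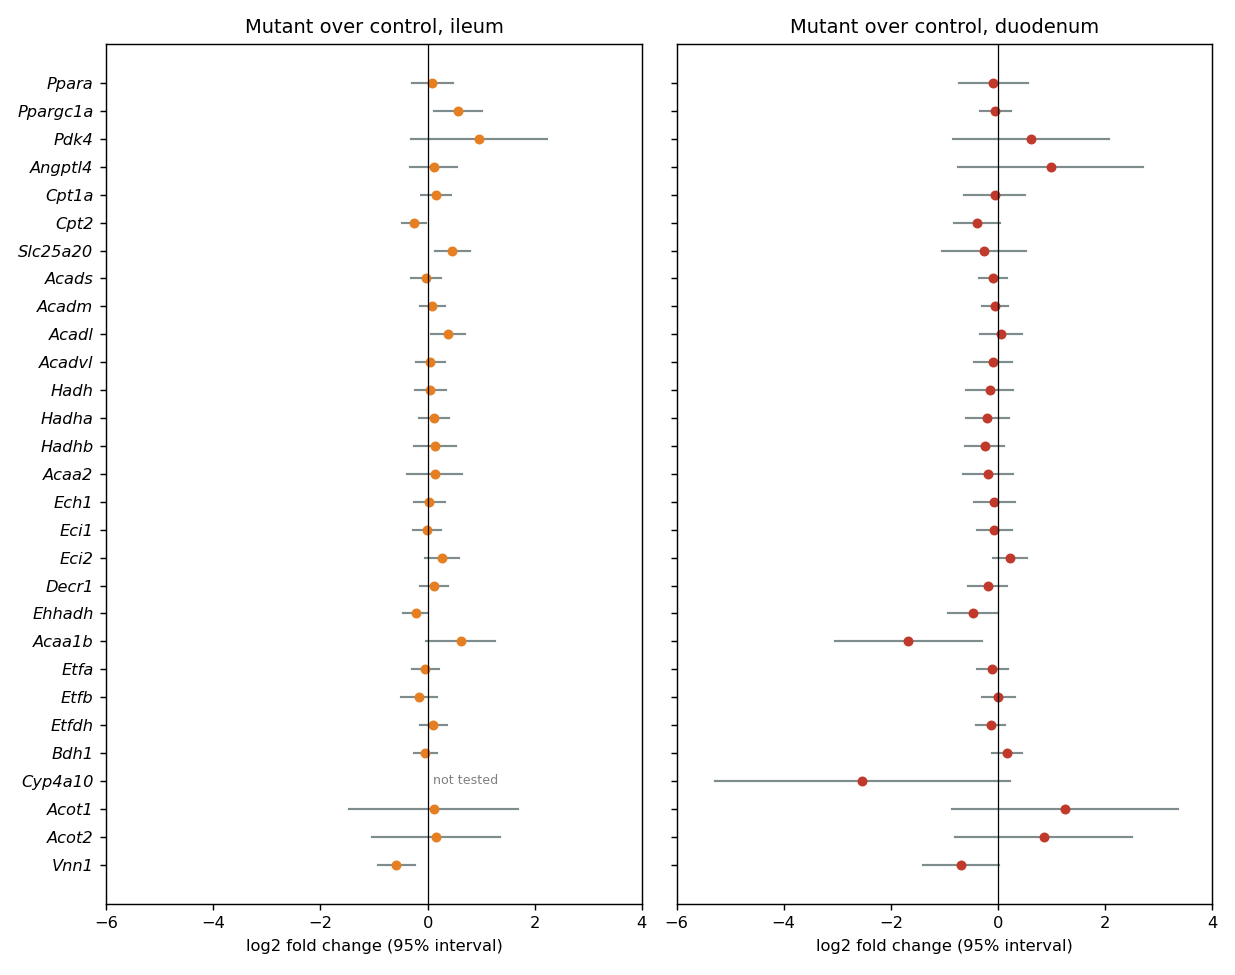
Log2 fold change of each listed gene, mutant over control, with its 95% interval (bars) in the ileum (left) and the duodenum (right). The intervals of Ppargc1a, Cpt2, Slc25a20, Acadl and Vnn1 in the ileum and of Acaa1b in the duodenum leave out 0, and no gene passed after adjustment; the widest intervals belong to Cyp4a10, Acot1, Acot2, Angptl4 and Pdk4 in the duodenum.

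The tissues, in contrast, differed in most of the listed genes. In controls, 23 of 29 genes tested were called between ileum and duodenum. Of these, 21 were lower in the ileum, against 18.7% of all 14976 genes tested, and 2 (Vnn1 and Angptl4) were higher, against 17.1% of all genes. The median log2 fold change, control ileum over control duodenum, was -0.65 for the listed genes and 0.01 for all genes tested. The ileum and duodenum of controls did not overlap in 21 of the 29 genes, against 34.6% of all genes tested. By role, 3 of 4 regulators, 1 of 3 genes of mitochondrial entry, 5 of 8 genes of the beta-oxidation spiral, 5 of 6 auxiliary and peroxisomal genes, all 3 electron transfer genes, Bdh1, Cyp4a10 and both thioesterases were lower in control ileum. Most markers of absorptive cells were also lower in control ileum. The summed level of 11 enterocyte markers was 21515 to 25584 CPM in control ileum and 32051 to 54762 CPM in control duodenum, with 6 of 11 called lower and 1 higher; all 11 had counts in every library. Sums of 8 pan-epithelial markers were 6752 to 8532 CPM in control ileum and 5134 to 5973 CPM in control duodenum, with 5 of 8 called higher in the ileum and 1 lower. Smooth muscle markers summed to 2605 to 3789 CPM in control ileum and 933 to 2167 CPM in control duodenum. Acinar markers summed to 4098 to 11314 CPM in control ileum, where Zg16 had the most counts of them in every library, and 74179 to 194305 CPM in control duodenum. Of 8 adipocyte markers tested, 7 were called higher and 1 lower in control ileum. The sums of the listed adipocyte markers overlapped, at 59.3 to 206 CPM in control ileum and 60.0 to 147 CPM in control duodenum. The adipocyte marker Adipoq ran from 3.62 to 16.9 CPM there and from 0 to 0.809 CPM in control duodenum. With libraries scaled to the epithelial markers instead of all genes, 26 of 29 listed genes were called, 25 lower and 1 higher in the ileum, against 36% of all genes lower and 6.1% higher. That scaling moved the median of all genes to -0.31, and split all calls into 913 higher and 5395 lower, against 2568 higher and 2804 lower without it. The median of the listed genes under it was -0.98. The part of the other cell types in these differences was not tested.

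**Figure D2:**
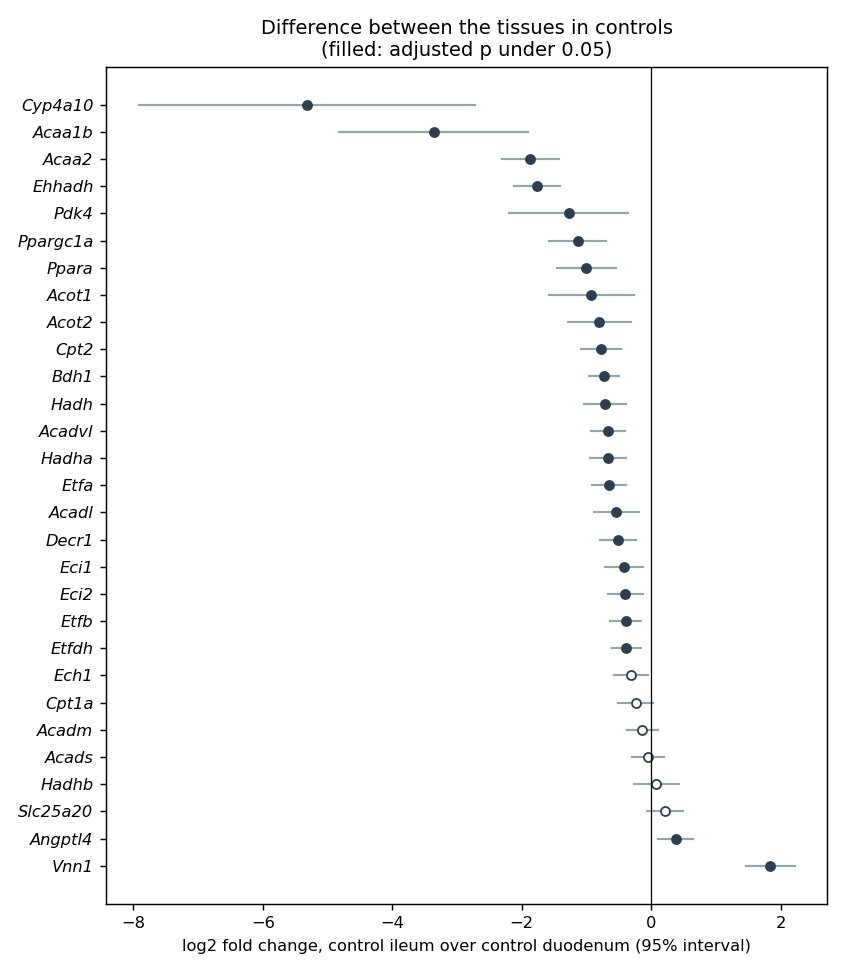
Log2 fold change of the 29 tested genes in controls, ileum over duodenum, with 95% intervals (bars); filled points passed at an adjusted p under 0.05. Cyp4a10 (-5.32) and Acaa1b (-3.36) lie farthest to the left, and Vnn1 (1.84) is the only gene above 1.

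How far these calls hold can be read from libraries left out and from the mutants. With each of the 8 control libraries left out in turn, 19 to 22 of the listed genes were called, with 4247 to 5455 genes of all kinds, and 17 of the 23 were called every time. With the 8 mutant libraries in place of the controls, 11 of 28 were called, 10 lower and 1 higher in the ileum, against 17.1% of all genes lower and 15.2% higher. All of the 11 were among the 23: Ppara, Ppargc1a, Cpt2, Acadvl, Acaa2, Ehhadh, Acaa1b, Etfa, Etfb, Bdh1 and Vnn1. With the animal as a replicate block, which pairs the tissues of each animal, 22 of the 23 were called and Pdk4 was not, with 39.4% of all genes called.

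Divided by the joined length of all annotated exons of a gene, the levels of the listed genes spread widely. That length can exceed the longest coding transcript, as for Hadhb with 6595 against 2048 bases, and the ranks below depend on it. Acaa2, the thiolase that ends the mitochondrial cycle, had 69.2 CPM per kb in control ileum and 253 CPM per kb in control duodenum (means over 4 libraries, lengths from the GENCODE annotation given here, which is not of the authors' build). It was the most abundant of the 31 in control duodenum. Hadh was the most abundant in control ileum, with 70.4 CPM per kb there and 116 CPM per kb in control duodenum. Ehhadh was at 29.1 CPM per kb in control ileum and 99.3 CPM per kb in control duodenum. Of the 29 genes tested, Cyp4a10, with 0.151 CPM per kb in control ileum and 6.31 CPM per kb in control duodenum, was the lowest in control ileum, and Acot1, with 1.30 CPM per kb in control ileum and 2.47 CPM per kb in control duodenum, was the lowest in control duodenum.

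Among the regulators, Ppara (ENSMUSG00000022383) encodes PPARalpha itself. In the ileum, Ppara had 33.2, 40.4, 21.1 and 34.0 CPM in mutants and 34.2, 22.3, 30.7 and 32.3 CPM in controls. In the duodenum, Ppara had 83.2, 60.3, 36.0 and 48.0 CPM in mutants and 49.1, 82.1, 42.5 and 67.0 CPM in controls. All control ileal values lay below all control duodenal values, and mutants and controls overlapped in both tissues. Ppara was lower in control ileum than in control duodenum, by -1.002 (SE 0.21, adjusted p = 0.00369) on the log2 scale, the scale of all differences that follow. Its genotype effect was 0.08 (95% interval -0.30 to 0.47, adjusted p = 0.887) in the ileum and -0.09 (95% interval -0.74 to 0.56, adjusted p = 0.981) in the duodenum. Ppargc1a (ENSMUSG00000029167) encodes PGC-1alpha, a coactivator of PPARalpha and of the estrogen-related receptors that drives mitochondrial genes. In the ileum, Ppargc1a had 40.4, 54.4, 55.1 and 59.0 CPM in mutants and 41.4, 21.3, 42.4 and 34.0 CPM in controls. In the duodenum, Ppargc1a had 72.0, 72.4, 67.2 and 86.7 CPM in mutants and 90.5, 73.0, 79.9 and 63.3 CPM in controls. Every ileal value, in both genotypes, lay below every duodenal value. Within the ileum 3 of 4 mutants lay above all controls, and NFVCT27 lay within the control range. Ppargc1a was lower in control ileum, at -1.13 (SE 0.20, adjusted p = 0.00133). The genotype effect in the ileum, 0.56 (SE 0.20, adjusted p = 0.179), did not pass, nor did that in the duodenum, -0.05 (SE 0.13, adjusted p = 0.977).

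Pdk4 (pyruvate dehydrogenase kinase, which restrains glucose oxidation when fat is burned) and Angptl4 (a secreted inhibitor of lipoprotein lipase) are classic PPARalpha targets. In the ileum, Pdk4 had 33.6, 62.6, 16.2 and 23.2 CPM in mutants and 16.03, 7.15, 22.1 and 23.1 CPM in controls. In the duodenum, Pdk4 had 126, 83.0, 21.8 and 26.8 CPM in mutants and 38.3, 63.1, 31.7 and 34.1 CPM in controls. NFVCT27 and NFVCT38 were the highest mutants in both tissues, and in the duodenum both lay above every control while the other 2 lay below every control. Pdk4 was lower in control ileum than in control duodenum, at -1.28 (SE 0.39, adjusted p = 0.0391). That call was lost without control ileum of NF17 (adjusted p = 0.0912) or NF32 (0.0546). It was also lost without control duodenum of NF17 (0.0719), NF29 (0.0742), NF32 (0.0524) or NF152 (0.0602), and with the animal as a replicate block (0.0878). The genotype effects of Pdk4 were 0.96 (95% interval -0.31 to 2.23, adjusted p = 0.464) in the ileum and 0.62 (95% interval -0.84 to 2.08, adjusted p = 0.891) in the duodenum. In the ileum, Angptl4 had 46.6, 63.8, 38.3 and 31.1 CPM in mutants and 43.1, 34.8, 36.0 and 49.3 CPM in controls. In the duodenum, Angptl4 had 105, 111, 19.6 and 13.0 CPM in mutants and 29.4, 34.4, 31.4 and 30.7 CPM in controls. The control values of Angptl4 were tight, and all control ileal values stood just above all control duodenal values. The 4 mutant duodenal values split, with NFVCT27 and NFVCT38 far above and NFVCT153 and NFVCT190 below all controls. In controls Angptl4 was higher in the ileum, at 0.38 (SE 0.13, adjusted p = 0.0296). Angptl4 lost that call without control ileum of NF17 (adjusted p = 0.0730) or NF152 (0.0877) and without control duodenum of NF17 (0.0910) or NF32 (0.0660). Scaled to epithelial markers, the difference was 0.06, and between the tissues of mutants it was -0.49, neither of which passed. The genotype effects of Angptl4 were 0.11 (95% interval -0.32 to 0.55, adjusted p = 0.859) in the ileum and 0.98 (95% interval -0.74 to 2.71, adjusted p = 0.825) in the duodenum.

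**Figure D3:**
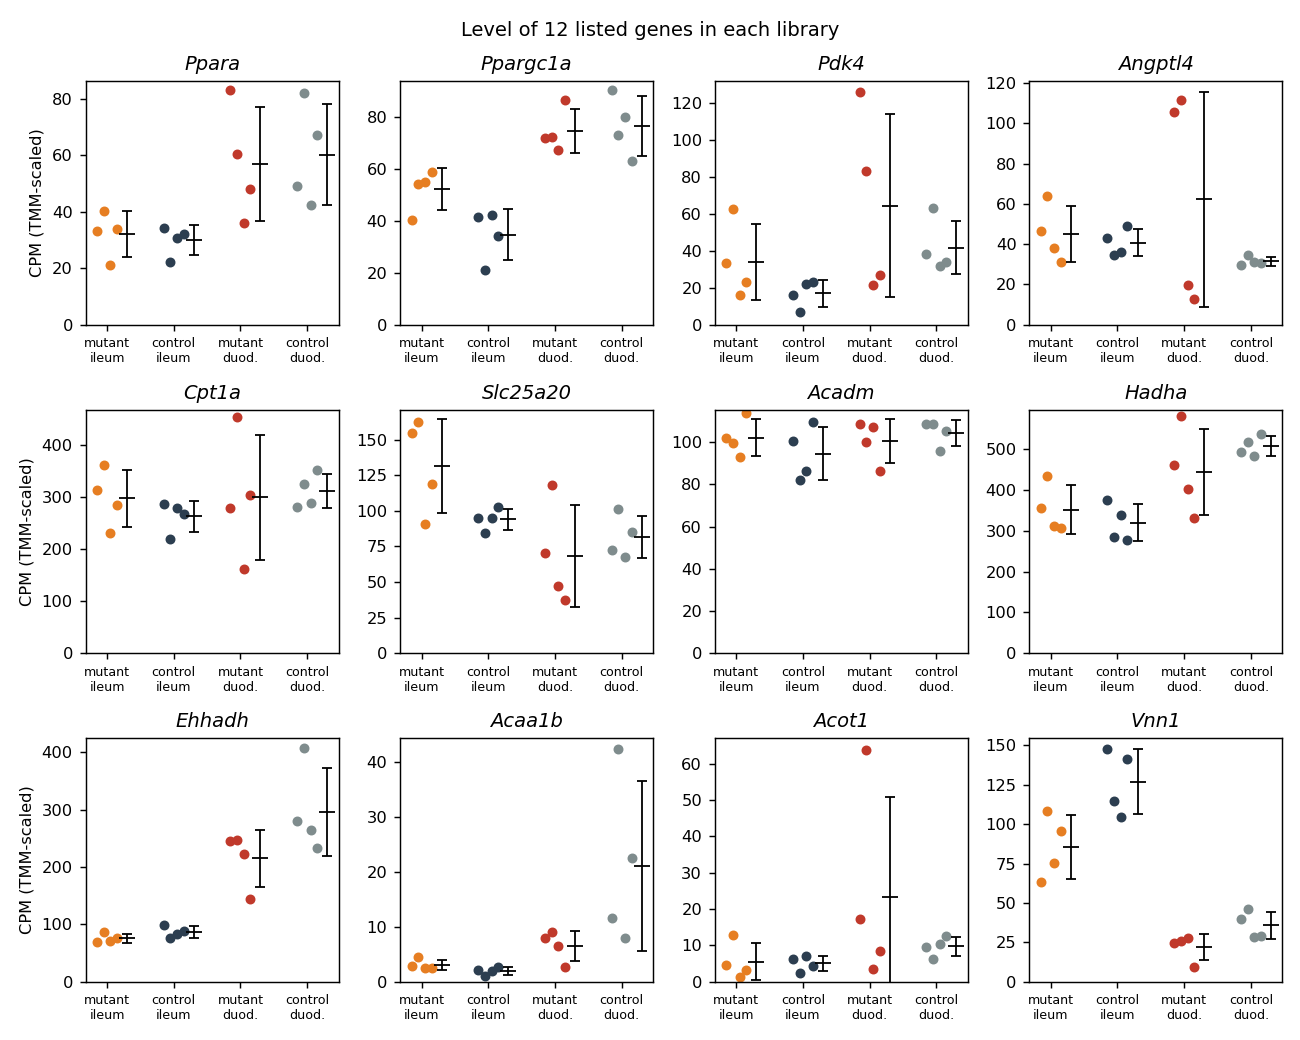
CPM of 12 listed genes in each library (points), with mean and SD over the 4 libraries of a group (bars); in each panel mutant stands left of control, first for the ileum and then for the duodenum. Mutants and controls overlap in every panel and tissue except Vnn1 in the duodenum. The share of all genes without such overlap was not computed. The spread among mutant duodenal libraries is widest for Pdk4, Angptl4 and Acot1.

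Pdk4, Angptl4 and the thioesterases Acot1 and Acot2 spread more widely among mutant than among control duodenal libraries. In the duodenum the highest mutant exceeded the lowest by 18.8 times for Acot1, 8.67 times for Acot2, 8.55 times for Angptl4 and 5.79 times for Pdk4. Among controls, in the same order of genes, the ratios were 1.98, 1.87, 1.17 and 1.99. In the ileum the ratios were 9.56 in mutants and 2.87 in controls for Acot1, 5.44 and 1.62 for Acot2, 2.05 and 1.41 for Angptl4, and 3.87 and 3.23 for Pdk4. The order of the 4 mutants was the same in the ileum as in the duodenum for Angptl4 (NFVCT38, NFVCT27, NFVCT153, NFVCT190, from high to low) and for Acot1 and Acot2 (NFVCT38, NFVCT27, NFVCT190, NFVCT153). The order differed between the tissues for Pdk4, where NFVCT27 and NFVCT38 changed places, and in controls it differed for all 4 genes. These genes were picked for their spread after it was seen, and the pattern carries no test. The duodenal ratios were also larger in mutants for Cpt1a (2.80 against 1.25) and Slc25a20 (3.16 against 1.49). Over genes of all kinds, pairs of mutant duodenal libraries had a chi-square per degree of freedom of 49.8 to 389. Pairs of control duodenal libraries had 26.3 to 76.5. That measure also grows with depth, so the wider spread is not shown to be particular to these genes. Fat cell markers differed between the same libraries. Adipoq, an adipocyte marker, had 7.35 CPM in mutant duodenum of NFVCT38 and at most 0.809 CPM in the other 7 duodenal libraries. In mutant duodenum of NFVCT27 Angptl4 stood at 105 CPM, Pdk4 at 126 CPM and Adipoq at 0. The sum of 9 adipocyte markers there was the highest of the duodenum, at 161 CPM, against 152.1 CPM in NFVCT38 and 42.6 CPM in NFVCT190, the lowest. In each duodenal library Cidec, which is also in a list of PPARalpha targets, had the most counts of the 9. In NFVCT27 it held 1790 counts, against 81 for Fabp4 and 31 for Car3, so the sum there is mainly that of Cidec. By group, the 9 markers summed to 154 to 217 CPM in mutant ileum, 59.3 to 206 CPM in control ileum, 42.6 to 161 CPM in mutant duodenum and 60.0 to 147 CPM in control duodenum. The part of fat cells in the spread of these genes was not tested. Ucp1, which defines brown fat, was at 0 in 15 of the 16 libraries.

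**Figure D4:**
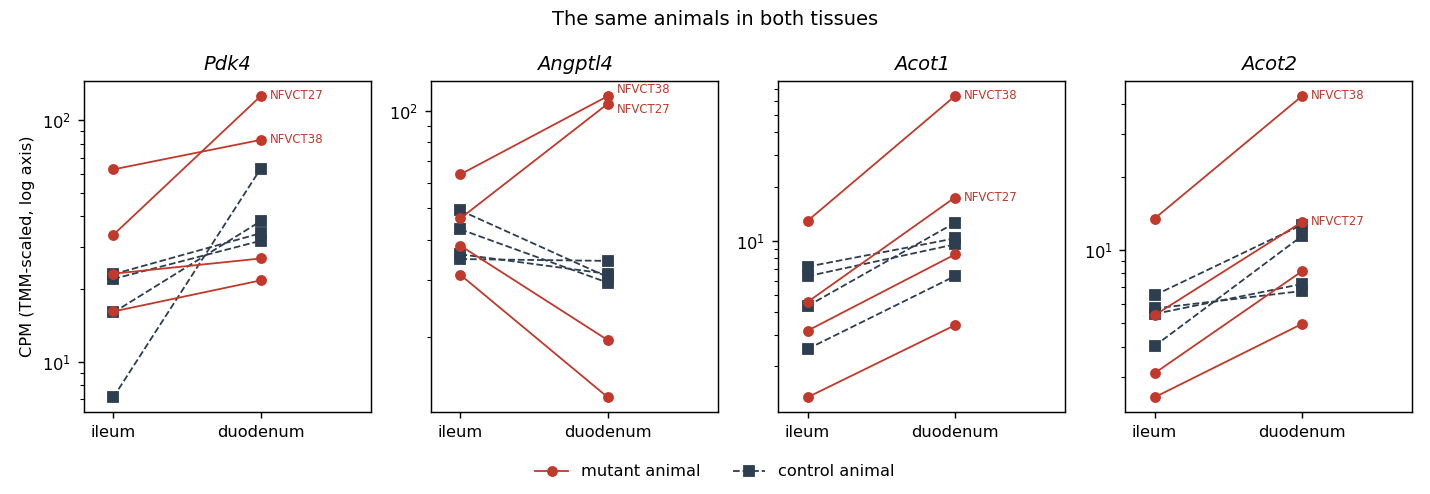
CPM (log axis) of Pdk4, Angptl4, Acot1 and Acot2 in the ileum (left) and duodenum (right) of each animal, joined by a line; red circles are mutants and dark squares controls. NFVCT38 is the highest mutant in both tissues for Angptl4, Acot1 and Acot2, and the 4 mutants spread more widely than the 4 controls in the duodenum.

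Entry into mitochondria runs over Cpt1a, Slc25a20 and Cpt2. Cpt1a, which makes acyl-carnitine at the outer membrane and sets the pace of oxidation, ran from 231 to 361 CPM in mutant ileum, 219.5 to 287 CPM in control ileum, 162 to 453 CPM in mutant duodenum and 280.3 to 351 CPM in control duodenum. It was not called in any comparison, with a tissue difference in controls of -0.24 (95% interval -0.51 to 0.03, adjusted p = 0.148) and genotype effects of 0.16 (SE 0.13, adjusted p = 0.643) in the ileum and -0.06 (SE 0.26, adjusted p = 0.984) in the duodenum. Scaled to epithelial markers, the tissue difference of Cpt1a passed, at -0.58 (adjusted p = 0.00955). Cpt2 turns acyl-carnitine back into acyl-CoA inside the mitochondrion. In the ileum, Cpt2 had 85.9, 90.6, 72.4 and 72.3 CPM in mutants and 108, 89.7, 90.4 and 89.2 CPM in controls. In the duodenum, Cpt2 had 144, 155, 99.9 and 98.6 CPM in mutants and 143, 219, 139.6 and 148 CPM in controls. All control ileal values lay below all control duodenal values. In the ileum 3 of 4 mutants lay below every control, while NFVCT38 lay above 3 controls. Cpt2 was lower in control ileum, at -0.78 (SE 0.14, adjusted p = 0.00103). Its ileal genotype effect was -0.25 (SE 0.11, adjusted p = 0.258) and its duodenal one -0.39 (SE 0.20, adjusted p = 0.639); neither passed.

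Slc25a20 (ENSMUSG00000032602) encodes the carnitine-acylcarnitine carrier of the inner membrane. Its promoter is shown because it held 1 of only 2 matches among the listed genes to the direct repeat bound by PPARalpha with RXR. The sequence is from RefSeq, build GRCm38.p6, 250 bases before to 50 after the start, 5′ to 3′; capitals mark the match to AGGTCANAGGTCA with 2 mismatches, whose first base lies at position 7 counted from the start.
Slc25a20 promoter, chr9:108661886-108662185, plus strand: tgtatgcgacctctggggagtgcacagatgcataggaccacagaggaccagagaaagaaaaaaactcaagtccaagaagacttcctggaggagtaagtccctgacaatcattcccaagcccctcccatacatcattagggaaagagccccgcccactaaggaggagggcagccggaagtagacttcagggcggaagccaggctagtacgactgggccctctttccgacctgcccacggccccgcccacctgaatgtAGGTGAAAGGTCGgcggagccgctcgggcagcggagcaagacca
In the ileum, Slc25a20 had 154, 162, 90.9 and 119 CPM in mutants and 94.8, 84.3, 94.9 and 102 CPM in controls. In the duodenum, Slc25a20 had 70.0, 118, 47.1 and 37.4 CPM in mutants and 72.6, 101, 67.7 and 85.4 CPM in controls. In the ileum 3 of 4 mutants lay above every control and NFVCT153 lay within the control range; in the duodenum mutants lay both above and below the controls. The ileal genotype effect of Slc25a20 was 0.46 (SE 0.15, adjusted p = 0.136) and the duodenal one -0.27 (SE 0.34, adjusted p = 0.923). Without mutant ileum of NFVCT153 the ileal effect was 0.59 and passed (adjusted p = 0.0188), and with no filter on low counts the adjusted p was 0.00497. Unlike most of the listed genes, it was not lower in control ileum, where the tissue difference was 0.21 (95% interval -0.07 to 0.48, adjusted p = 0.224) and, scaled to epithelial markers, -0.12 (adjusted p = 0.599).

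The first step of each cycle is carried out by acyl-CoA dehydrogenases of different chain length. Acadm (medium chain) and Acads (short chain) were not called in any comparison. Acadm ran from 92.8 to 114 CPM in mutant ileum, 82.0 to 109 CPM in control ileum, 86.3 to 109 CPM in mutant duodenum and 95.7 to 109 CPM in control duodenum, and its tissue difference in controls was -0.14 (95% interval -0.38 to 0.10, adjusted p = 0.356). Acads ran from 59.3 to 89.2 CPM in mutant ileum, 65.9 to 88.5 CPM in control ileum, 59.6 to 82.0 CPM in mutant duodenum and 68.4 to 81.0 CPM in control duodenum, with a tissue difference of -0.05 (95% interval -0.29 to 0.20, adjusted p = 0.774). Scaled to epithelial markers, both passed, Acadm at -0.46 (adjusted p = 0.0227) and Acads at -0.39 (0.0315). Without that scaling both intervals span 0, and the groups overlapped in every comparison of these genes. The genotype effects of Acadm were 0.09 in the ileum and -0.06 in the duodenum, and those of Acads were -0.03 and -0.09, all with an adjusted p of at least 0.768. Acadl, the long-chain enzyme, did pass between the tissues. In the ileum, Acadl had 113, 125, 82.7 and 90.4 CPM in mutants and 66.5, 97.3, 69.5 and 78.1 CPM in controls. In the duodenum, Acadl had 113, 147, 89.2 and 124 CPM in mutants and 101, 151.6, 103 and 98.8 CPM in controls. All control ileal values lay below all control duodenal values, though the highest ileal one (97.3 CPM, NF29) came close to the lowest duodenal one (98.8 CPM, NF152). Acadl was lower in control ileum, at -0.54 (SE 0.16, adjusted p = 0.0188), a call lost without control ileum of NF17 (adjusted p = 0.0594) or NF32 (0.0616). The ileal genotype effect was 0.38 (SE 0.15, adjusted p = 0.208). Acadvl, the very-long-chain enzyme of the inner membrane, was lower in control ileum in all libraries. In the ileum, Acadvl had 179, 175, 126 and 159.7 CPM in mutants and 174, 133, 159 and 141 CPM in controls. In the duodenum, Acadvl had 252, 255, 239 and 166 CPM in mutants and 237, 269.7, 209.6 and 252 CPM in controls. Its tissue difference in controls was -0.67 (SE 0.12, adjusted p = 8.44e-04), and the genotypes overlapped in both tissues, with effects of 0.05 in the ileum and -0.09 in the duodenum.

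Hadh encodes the dehydrogenase of the third step for short and medium chains. In the ileum, Hadh had 352, 381, 304 and 438 CPM in mutants and 396, 281, 328 and 397 CPM in controls. In the duodenum, Hadh had 616, 493, 609 and 359 CPM in mutants and 579, 689, 511 and 526 CPM in controls. All control ileal values lay below all control duodenal values, while mutant duodenum of NFVCT190 fell within the range of the ileum. Hadh was lower in control ileum, at -0.71 (SE 0.15, adjusted p = 0.00231). Its genotype effects were 0.05 (SE 0.13, adjusted p = 0.911) in the ileum and -0.16 (SE 0.20, adjusted p = 0.918) in the duodenum. Acaa2 encodes the mitochondrial thiolase that splits off acetyl-CoA. In the ileum, Acaa2 had 110.5, 157, 82.4 and 117 CPM in mutants and 120.3, 66.9, 109 and 123 CPM in controls. In the duodenum, Acaa2 had 416, 415, 257 and 263 CPM in mutants and 343, 431, 303 and 458 CPM in controls. The tissues did not overlap in either genotype. The difference between control tissues, -1.87 (SE 0.20, adjusted p = 2.81e-05), was the largest among the 8 genes of the spiral, and between mutant ileum and mutant duodenum the value was -1.56 (adjusted p = 4.74e-04). Genotype effects on Acaa2 were 0.13 (SE 0.23, adjusted p = 0.859) in the ileum and -0.19 (SE 0.21, adjusted p = 0.901) in the duodenum.

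Hadha and Hadhb encode the alpha and beta subunits of the mitochondrial trifunctional protein, which carries out the last 3 steps on long chains. The genes lie head to head, with RefSeq starts 273 bases apart, and their promoter windows share 228 bases. The window of Hadhb is shown for that reason, from RefSeq, build GRCm38.p6, 5′ to 3′; capitals mark the bases that also lie, on the other strand, in the window of Hadha.
Hadhb promoter, chr5:30155003-30155302, plus strand: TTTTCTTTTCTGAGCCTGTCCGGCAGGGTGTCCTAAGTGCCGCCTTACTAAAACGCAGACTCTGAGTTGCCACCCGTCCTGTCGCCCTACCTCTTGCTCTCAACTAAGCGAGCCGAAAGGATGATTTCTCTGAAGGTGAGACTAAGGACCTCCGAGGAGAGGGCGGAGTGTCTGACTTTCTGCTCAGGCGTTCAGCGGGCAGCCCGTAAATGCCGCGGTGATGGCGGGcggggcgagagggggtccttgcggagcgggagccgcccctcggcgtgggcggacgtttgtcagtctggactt
In the ileum, Hadha had 355, 435, 310.4 and 306 CPM in mutants and 375, 286, 339 and 278 CPM in controls. In the duodenum, Hadha had 462, 581, 403 and 331 CPM in mutants and 493, 518, 483 and 536 CPM in controls. All control ileal values of Hadha lay below all control duodenal values. In the ileum, Hadhb had 33.5, 37.2, 20.8 and 30.7 CPM in mutants and 28.8, 19.1, 27.8 and 33.2 CPM in controls. In the duodenum, Hadhb had 21.8, 27.9, 20.8 and 16.9 CPM in mutants and 21.6, 27.8, 24.3 and 29.9 CPM in controls. For Hadhb the tissues overlapped. Hadha was lower in control ileum, at -0.66 (SE 0.13, adjusted p = 0.00134), and Hadhb did not pass, at 0.08 (95% interval -0.27 to 0.43, adjusted p = 0.736), or -0.25 scaled to epithelial markers. The difference between the tissue effects of these genes was not tested. In each library the CPM of Hadha exceeded that of Hadhb, by 9.97 to 14.9 times in mutant ileum, 8.39 to 14.9 times in control ileum, 19.4 to 21.1 times in mutant duodenum and 17.9 to 22.8 times in control duodenum. Per kb of annotated exons the ratio was 6.34 to 11.3 in control ileum and 13.5 to 17.2 in control duodenum. Hadhb has a processed pseudogene, Gm13910, with 99.79% identity over 1428 bases, which held 381 counts in all against 6727 for Hadhb; counts of Hadhb are uncertain where reads could not be placed between the copies. The genotype effects were 0.12 (SE 0.13, adjusted p = 0.751) for Hadha in the ileum and -0.20 (SE 0.18, adjusted p = 0.876) in the duodenum, and for Hadhb 0.14 (SE 0.18, adjusted p = 0.789) and -0.25 (SE 0.16, adjusted p = 0.774) in the same order.

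Ech1, Eci1, Eci2 and Decr1 prepare unsaturated fatty acids for the cycle by moving or reducing double bonds. Ech1 did not pass between the tissues of controls, at -0.31 (SE 0.12, adjusted p = 0.0643), with 116 to 134 CPM in control ileum and 128 to 182 CPM in control duodenum; without control duodenum of NF32 it passed at -0.40 (adjusted p = 0.0258), and scaled to epithelial markers at -0.65 (0.00543). In mutants Ech1 ran from 92.5 to 156 CPM in the ileum and 104 to 171 CPM in the duodenum, overlapping controls in both tissues. The other 3 genes were lower in control ileum. In the ileum, Eci1 had 31.5, 33.1, 29.3 and 34.7 CPM in mutants and 34.5, 27.3, 28.1 and 37.4 CPM in controls. In the duodenum, Eci1 had 44.4, 40.9, 47.1 and 30.8 CPM in mutants and 40.6, 39.9, 38.7 and 51.3 CPM in controls. Control tissues did not overlap for Eci1, and mutant duodenum of NFVCT190 lay within the ileal range. The tissue difference was -0.42 (SE 0.14, adjusted p = 0.0277), and it was lost without control ileum of NF29 (adjusted p = 0.0714) or NF32 (0.0799) or control duodenum of NF152 (0.0739). In the ileum, Eci2 had 52.2, 65.5, 36.2 and 51.2 CPM in mutants and 40.6, 38.8, 40.7 and 47.9 CPM in controls. In the duodenum, Eci2 had 68.3, 77.7, 58.0 and 55.9 CPM in mutants and 47.2, 53.8, 53.4 and 67.5 CPM in controls. Here the control tissues overlapped, since NF152 in the ileum lay above NF17 in the duodenum. The tissue difference of Eci2 was -0.40 (SE 0.12, adjusted p = 0.0234); it was lost without control ileum of NF17 (adjusted p = 0.0620), NF29 (0.0571) or NF32 (0.0585) or control duodenum of NF152 (0.0636). Eci2 shares 91.81% of 891 bases with Eci3, so reads may have been split between them. In the ileum, Decr1 had 139, 174, 120.4 and 155 CPM in mutants and 142, 115, 122 and 156 CPM in controls. In the duodenum, Decr1 had 181, 176, 196 and 120.1 CPM in mutants and 182, 205, 159.99 and 219.7 CPM in controls. The control tissues did not overlap for Decr1, and NFVCT190 was the lowest duodenal library. Decr1 was lower in control ileum at -0.51 (SE 0.13, adjusted p = 0.00788). Genotype effects on these 4 genes lay between -0.01 (Eci1) and 0.27 (Eci2) in the ileum and between -0.20 (Decr1) and 0.22 (Eci2) in the duodenum, with the lowest adjusted p of 0.415 for Eci2 in the ileum.

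The peroxisomal genes among the listed ones showed some of the widest gaps between the tissues. Ehhadh (ENSMUSG00000022853), a bifunctional enzyme of the peroxisome and a standard PPARalpha target in liver, was lower in the ileum of both genotypes. In the ileum, Ehhadh had 68.5, 86.9, 70.7 and 75.7 CPM in mutants and 99.3, 75.3, 83.9 and 88.3 CPM in controls. In the duodenum, Ehhadh had 246, 246, 223 and 143 CPM in mutants and 279, 408, 264 and 233 CPM in controls. No ileal library reached 143 CPM, the lowest duodenal value. Its tissue difference was -1.77 (SE 0.17, adjusted p = 5.18e-06) in controls and -1.53 (adjusted p = 7.09e-05) in mutants. The genotype effect of Ehhadh was -0.22 (SE 0.11, adjusted p = 0.349) in the ileum and -0.47 (SE 0.21, adjusted p = 0.582) in the duodenum, and neither passed. Acaa1b, a peroxisomal thiolase, was rare in the ileum and variable in the duodenum. In the ileum, Acaa1b had 2.81, 4.46, 2.58 and 2.57 CPM in mutants and 2.22, 0.983, 1.998 and 2.64 CPM in controls. In the duodenum, Acaa1b had 7.98, 8.98, 6.49 and 2.76 CPM in mutants and 11.6, 42.3, 7.98 and 22.5 CPM in controls. Each control duodenal library lay above every ileal one. Among the duodenal libraries NF29 was highest and NFVCT190 lowest. The tissue difference of Acaa1b was -3.36 (SE 0.62, adjusted p = 0.00559). Its duodenal genotype effect, -1.67 (95% interval -3.05 to -0.29, adjusted p = 0.434), had an unadjusted p of 0.0239, the only one under 0.05 among the listed genes in that tissue. The ileal effect was 0.62 (95% interval -0.02 to 1.25, adjusted p = 0.339). Acaa1b shares 96.64% of 1428 bases with Acaa1a, which held 24012 counts against 1918, so its counts are uncertain.

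Etfa, Etfb and Etfdh pass electrons from the acyl-CoA dehydrogenases to the respiratory chain. All 3 were lower in control ileum. In the ileum, Etfa had 68.1, 66.1, 53.3 and 78.0 CPM in mutants and 64.6, 69.6, 59.2 and 76.2 CPM in controls. In the duodenum, Etfa had 105, 107, 82.2 and 103 CPM in mutants and 96.7, 127, 105 and 96.9 CPM in controls. Every ileal value of Etfa, in both genotypes, lay below every duodenal value. In the ileum, Etfb had 24.2, 20.8, 13.1 and 18.6 CPM in mutants and 22.8, 19.6, 22.1 and 19.9 CPM in controls. In the duodenum, Etfb had 28.5, 35.2, 25.6 and 22.3 CPM in mutants and 26.8, 30.2, 26.4 and 27.7 CPM in controls. In controls the tissues did not overlap for Etfb, while mutant duodenum of NFVCT190 lay within the ileal range. In the ileum, Etfdh had 114, 130.5, 91.9 and 110.03 CPM in mutants and 103, 93.0, 93.6 and 119 CPM in controls. In the duodenum, Etfdh had 133, 137, 119 and 98.6 CPM in mutants and 137, 137, 123 and 136 CPM in controls. In controls Etfdh did not overlap between the tissues either, and the lowest duodenal library was again NFVCT190. Tissue differences in controls were -0.65 (SE 0.12, adjusted p = 9.04e-04) for Etfa, -0.39 (SE 0.11, adjusted p = 0.0129) for Etfb and -0.38 (SE 0.11, adjusted p = 0.0137) for Etfdh. Genotype effects ran from -0.16 (Etfb) to 0.11 (Etfdh) in the ileum, and from -0.14 (Etfdh) to 0.00 (Etfb) in the duodenum, all with an adjusted p of at least 0.701.

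Bdh1, the mitochondrial dehydrogenase that interconverts the ketone bodies acetoacetate and beta-hydroxybutyrate, was lower in the ileum. In the ileum, Bdh1 had 77.9, 77.9, 80.0 and 78.4 CPM in mutants and 83.3, 88.5, 72.2 and 74.6 CPM in controls. In the duodenum, Bdh1 had 149.6, 157, 165 and 122 CPM in mutants and 138, 145, 126 and 118 CPM in controls. The tissues did not overlap in either genotype, and the 4 mutant ileal values lay within 2.07 CPM of each other. Bdh1 differed by -0.73 (SE 0.11, adjusted p = 1.95e-04) between the tissues of controls and by -0.94 (adjusted p = 1.18e-04) between those of mutants. Its genotype effects were -0.04 (SE 0.10, adjusted p = 0.905) in the ileum and 0.16 (SE 0.13, adjusted p = 0.8288) in the duodenum.

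Of the microsomal omega-hydroxylases, Cyp4a14 had 0 counts in all 16 libraries, and Cyp4a31 had 6 counts in all, 3 each in control duodenum of NF17 and NF152. Neither could be tested. Cyp4a10 (ENSMUSG00000066072) was found mainly in the duodenum. In the ileum, Cyp4a10 had 0, 1.01, 0 and 0 CPM in mutants and 0.143, 0.536, 0 and 0.595 CPM in controls. In the duodenum, Cyp4a10 had 1.60, 6.82, 0.435 and 0.221 CPM in mutants and 6.53, 23.8, 1.95 and 20.9 CPM in controls. These values rest on 0, 16, 0 and 0 counts in mutant ileum, 4, 6, 0 and 14 counts in control ileum, 19, 117, 15 and 2 counts in mutant duodenum and 80, 255, 21 and 388 counts in control duodenum. The duodenal controls NF29 and NF152 were highest, the mutant NFVCT38 lay within the control range, and the other 3 mutants lay below every control. Cyp4a10 was lower in control ileum at -5.32 (SE 1.08, adjusted p = 0.00956), the largest tissue difference of the listed genes. In the duodenum the genotype effect was -2.53 (95% interval -5.29 to 0.22, adjusted p = 0.623); in the ileum it was too rare to test. Cyp4a10 shares 96.11% of 1593 bases with Cyp4a31 and 97.19% of 1530 bases with Cyp4a32, so its counts are uncertain.

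Acot1 and Acot2 encode the cytosolic and the mitochondrial acyl-CoA thioesterase of a gene cluster on chromosome 12 and share 95.06% of 1274 transcript bases, so reads may have been split between them. Their promoters are shown because both genes had the same order of mutants in both tissues; an alignment with 108 gaps matched 178 of 246 aligned bases, and neither held a match to the direct repeat. Both are from RefSeq, build GRCm38.p6, 5′ to 3′, 250 bases before to 50 after the start, with nothing marked.
Acot1 promoter, chr12:84009252-84009551, plus strand: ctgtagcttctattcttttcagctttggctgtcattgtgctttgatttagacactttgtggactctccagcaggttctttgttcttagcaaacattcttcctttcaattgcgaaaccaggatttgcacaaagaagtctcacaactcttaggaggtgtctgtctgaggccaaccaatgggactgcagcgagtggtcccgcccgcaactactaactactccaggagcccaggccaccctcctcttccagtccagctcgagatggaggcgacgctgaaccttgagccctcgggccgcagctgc
Acot2 promoter, chr12:83987611-83987910, plus strand: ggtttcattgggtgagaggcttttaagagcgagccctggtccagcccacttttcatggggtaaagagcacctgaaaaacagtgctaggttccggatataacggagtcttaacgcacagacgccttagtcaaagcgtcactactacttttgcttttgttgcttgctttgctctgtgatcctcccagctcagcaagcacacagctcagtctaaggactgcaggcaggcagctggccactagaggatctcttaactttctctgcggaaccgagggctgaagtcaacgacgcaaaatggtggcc
In the ileum, Acot1 had 4.56, 12.9, 1.35 and 3.16 CPM in mutants and 6.35, 2.502, 7.17 and 4.34 CPM in controls. In the duodenum, Acot1 had 17.4, 63.7, 3.39 and 8.38 CPM in mutants and 9.54, 6.36, 10.3 and 12.6 CPM in controls. In each tissue the mutant NFVCT38 stood above all other libraries and the mutant NFVCT153 below them. In the ileum, Acot2 had 5.38, 13.5, 2.47 and 3.11 CPM in mutants and 5.74, 4.02, 5.45 and 6.503 CPM in controls. In the duodenum, Acot2 had 13.0, 43.0, 4.96 and 8.16 CPM in mutants and 6.77, 11.4, 7.24 and 12.7 CPM in controls. For Acot2, NFVCT38 was again highest and NFVCT153 lowest in each tissue. Acot1 was lower in control ileum at -0.93 (SE 0.30, adjusted p = 0.0319) although NF32 in the ileum lay above NF29 in the duodenum. The call for Acot1 was lost without control ileum of NF152 (adjusted p = 0.0900) or control duodenum of NF17 (0.0648), NF32 (0.0660) or NF152 (0.0877). Acot2 was lower at -0.80 (SE 0.23, adjusted p = 0.0146), without overlap. The genotype effects were 0.11 (95% interval -1.47 to 1.69, adjusted p = 0.967) for Acot1 in the ileum and 1.25 (95% interval -0.86 to 3.35, adjusted p = 0.821) in the duodenum. For Acot2 they were 0.16 (95% interval -1.03 to 1.35, adjusted p = 0.935) in the ileum and 0.85 (95% interval -0.80 to 2.503, adjusted p = 0.854) in the duodenum.

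Vnn1 (ENSMUSG00000037440), a pantetheinase of the epithelial surface that recycles vitamin B5 and is a PPARalpha target in liver, was 1 of the 2 listed genes higher in control ileum, with Angptl4. In the ileum, Vnn1 had 63.3, 109, 75.3 and 95.4 CPM in mutants and 147, 115, 104 and 141 CPM in controls. In the duodenum, Vnn1 had 24.4, 26.1, 27.7 and 9.60 CPM in mutants and 39.7, 46.0, 28.3 and 28.7 CPM in controls. Every ileal value, in both genotypes, lay above every duodenal value. In the duodenum all 4 mutants lay below all 4 controls, by a margin of 27.7 CPM in NFVCT153 against 28.3 CPM in NF32. In the ileum only NFVCT38 reached the control range. Mutants and controls did not overlap in 1 of 29 listed genes tested in the duodenum and 0 of 28 in the ileum. The share of all genes without overlap between the genotypes was not computed, so the lack of overlap is a description only. Vnn1 was higher in control ileum than in control duodenum, at 1.84 (SE 0.17, adjusted p = 8.77e-06), and in mutants at 1.93 (adjusted p = 0.00172). The genotype effect in the ileum was -0.59 (95% interval -0.93 to -0.24, adjusted p = 0.0684), with means of 85.6 ± 20.2 CPM in mutants and 127 ± 20.7 CPM in controls (SD, n = 4 libraries each). In the duodenum the effect was -0.69 (95% interval -1.41 to 0.02, adjusted p = 0.596), with means of 21.95 ± 8.34 CPM in mutants and 35.7 ± 8.67 CPM in controls. Neither passed in edgeR. The ileal effect passed in DESeq2 (adjusted p = 0.0174), with no filter on low counts (6.86e-05) and without mutant ileum of NFVCT38 (0.0348). Over all alternatives the adjusted p ran from 6.86e-05 to 0.737, the highest with the smooth muscle score as a covariate. That score did not overlap between the genotypes in the ileum, so its fit cannot separate genotype from smooth muscle.

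Some libraries were often the lowest or highest for the listed genes. The share of all genes for which a library was lowest or highest was not computed. Whether the counts below are particular to the listed genes is therefore not known. In the duodenum NFVCT190 was the lowest of 8 libraries for 18 of the 29 genes, and NFVCT153 for 8. NF29 and NFVCT38 were each the highest for 9. In the ileum NFVCT38 was the highest of 8 for 17 of 29 genes, while NFVCT153 and NF29 were each the lowest for 11. For Cyp4a10 NFVCT153 shared the lowest place, at 0 counts, with other ileal libraries, and such ties count for each. The enterocyte sum was 16834 CPM in mutant duodenum of NFVCT190, the lowest of the tissue, and 54762 CPM in control duodenum of NF29, the highest. The part of the enterocyte share in these ranks was not tested. Without mutant duodenum of NFVCT190 the median duodenal effect of the listed genes was -0.03, and 0 were called. Without mutant ileum of NFVCT38 the median ileal effect was -0.01, with 13 genes above 0 and 15 below.

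**Figure D5:**
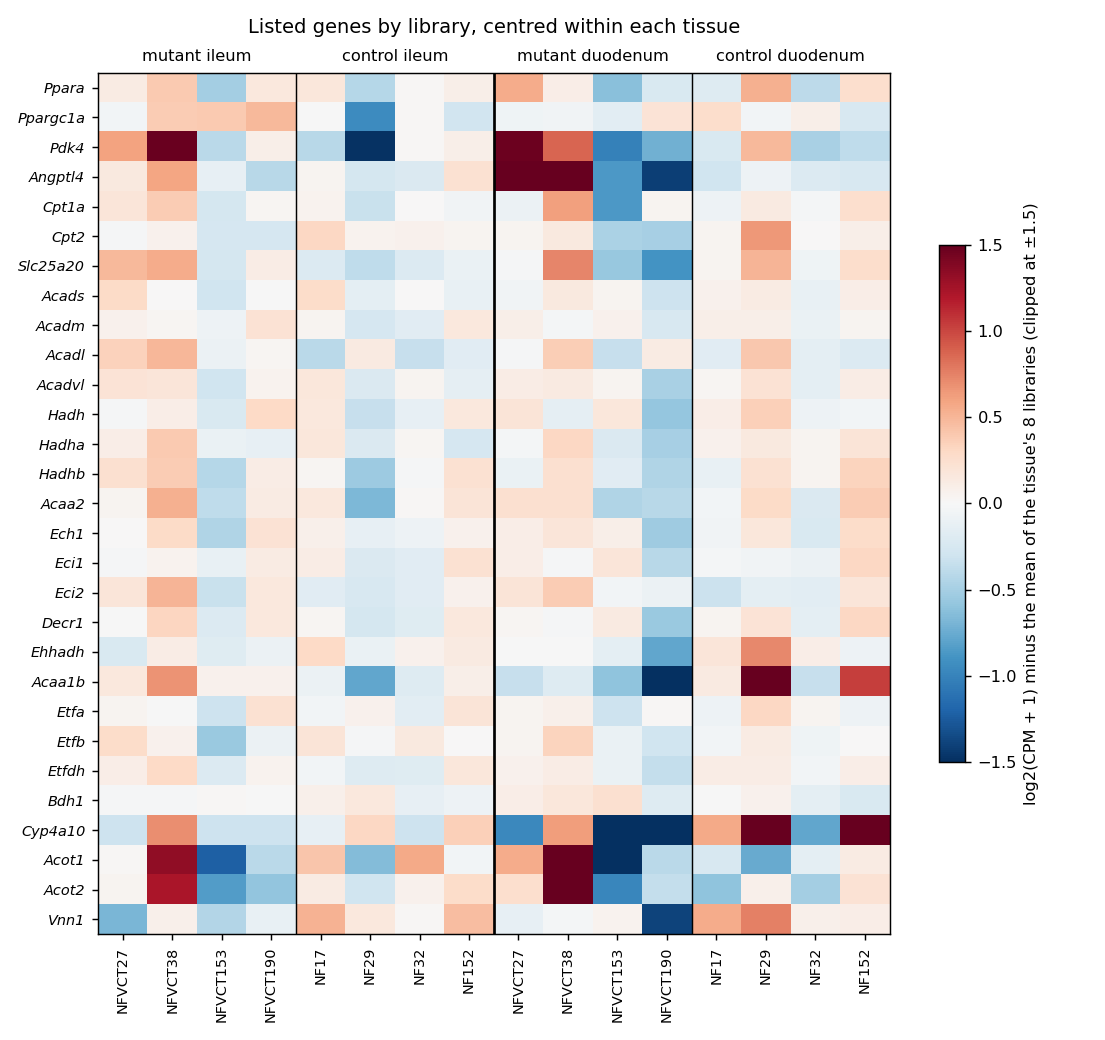
Log2(CPM + 1) of the 29 tested genes in each library, as the difference from the mean of the 8 libraries of its tissue (colour, clipped at ±1.5); columns are animals, mutant left of control within each tissue, ileum left and duodenum right. NFVCT190 in the duodenum is below the mean for most genes, and NFVCT38 in the ileum is above it for most genes.

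No listed gene passed the test of whether its genotype effect differed between the tissues. That test, ileum minus duodenum, called 0 of 29 listed genes, against 0.0441% of all 15882 genes tested. At an unadjusted p under 0.05 there were 2 of 29, against 4.41% of all genes. DESeq2 called 0, with 0.24% of all genes called, and limma-voom called 0, with 0.0504% of all genes called. These 2 were Acaa1b, with a difference of 2.29 (95% interval 0.78 to 3.81, adjusted p = 0.689) on the log2 scale, and Ppargc1a, with 0.63 (95% interval 0.10 to 1.15, adjusted p = 1). Slc25a20 followed at 0.74 (95% interval -0.13 to 1.61, adjusted p = 1). With the animal as a replicate block, 0 of the listed genes were called and 7 had an unadjusted p under 0.05, against 5.31% of all genes; 16 genes of all kinds were called in that fit, 0.101% of those tested, instead of 7.

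Beyond the 31, some other genes of the same pathways did differ by genotype in the ileum. Of 97 such genes in 5 lists (regulators, ketone bodies, mitochondrial oxidation, peroxisomal oxidation and further PPARalpha targets), 85 were tested in the ileum and 9 were called, 7 higher and 2 lower, with a median of 0.04. These were 9 of 85 against the 3.28% of all genes given above. Slc16a6, a transporter that carries ketone bodies, had the largest of these effects. In the ileum, Slc16a6 had 39.1, 55.6, 55.1 and 38.6 CPM in mutants and 17.6, 20.2, 18.9 and 19.0 CPM in controls. In the duodenum, Slc16a6 had 131, 116, 114 and 93.9 CPM in mutants and 97.0, 129, 109 and 103 CPM in controls. All ileal mutants lay above all ileal controls, and in the duodenum the genotypes overlapped. Slc16a6 rose by 1.30 (SE 0.14, adjusted p = 1.61e-04) in mutant ileum, against 0.05 (SE 0.14, adjusted p = 0.979) in the duodenum, and the difference between the effects passed, at 1.26 (SE 0.19, adjusted p = 0.0135). That difference was lost without control ileum of NF32 (adjusted p = 0.0529), mutant ileum of NFVCT38 (0.0520) or control duodenum of NF29 (0.0721). Slc16a1, the monocarboxylate transporter MCT1, rose by 0.52 (SE 0.09, adjusted p = 0.00684). Ketone body genes had 2 of 8 called higher and 0 lower in the ileum, with a median of 0.44.

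Among 17 further regulators tested in the ileum, Creb3l3, a transcription factor of liver and gut that acts with PPARalpha in fasting, rose by 0.82 (SE 0.18, adjusted p = 0.0362). Lpin1, a phosphatidate phosphatase that also acts as a coactivator, rose by 0.53 (SE 0.14, adjusted p = 0.0466); 0 fell, and the median was 0.10. Of 18 further mitochondrial genes, Acsl1, which activates long-chain fatty acids, rose by 0.51 (SE 0.13, adjusted p = 0.0418). Slc22a5, the carnitine importer, fell in mutants, at -0.66 (SE 0.12, adjusted p = 0.00624), and so did Pcca, a subunit of propionyl-CoA carboxylase, at -0.50 (SE 0.12, adjusted p = 0.0335). Their list had a median of -0.01. Of 20 further PPARalpha targets, Gpd1, glycerol-3-phosphate dehydrogenase, rose by 0.58 (SE 0.10, adjusted p = 0.00763) and Mgll, monoacylglycerol lipase, by 0.60 (SE 0.12, adjusted p = 0.0120), with 0 lower and a median of 0.08. Slc16a6, Slc16a1, Slc22a5 and Gpd1 were also called without each of the 8 ileal libraries. Mgll was lost without mutant ileum of NFVCT38 (adjusted p = 0.0539). Pcca was lost without any library other than mutant NFVCT153 (adjusted p = 0.0615 to 0.106), Acsl1 without any other than control NF152 (0.0543 to 0.141) and Lpin1 without any other than control NF32 (0.0550 to 0.136). Creb3l3 was lost without control NF32 or NF152 or mutant NFVCT27, NFVCT38 or NFVCT190 (0.0626 to 0.115). With the smooth muscle score as a covariate 0 of these 9 passed, with adjusted p from 0.402 (Slc16a1) to 0.755 (Creb3l3). Each kept its direction, for example 1.03 for Slc16a6, and 16 genes of all kinds were called in that fit. The score ran from 8.33 to 8.74 in mutant ileum and 7.55 to 8.07 in control ileum, without overlap. That fit therefore cannot separate genotype from smooth muscle.

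Among 22 peroxisomal genes 0 were called in the ileum by edgeR, with 3 at an unadjusted p under 0.05 and 1 called by DESeq2 and 1 by limma-voom; the smallest p was that of Acox2, a branched-chain acyl-CoA oxidase, at 0.75 (SE 0.21, adjusted p = 0.0794), and the median was -0.09. Acox2 passed without control ileum of NF152 (adjusted p = 0.0309). Among 31 genes of the respiratory chain and citrate cycle 0 were called in the ileum, with 4 at an unadjusted p under 0.05 and 0 called by DESeq2 or limma-voom; the smallest p was that of Atp5a1, an ATP synthase subunit, at 0.31 (SE 0.12, adjusted p = 0.176), and the median was 0.13.

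In the duodenum edgeR called 0 of 86 genes of the 5 lists, with 16 at an unadjusted p under 0.05, against 8.71% of all genes. DESeq2 called 4, among them Lpin1, Hsd17b4 and Oxct1, against 2.11% of all genes, and limma-voom 0. Of the 31 respiratory chain genes 0 were called, with 1 at an unadjusted p under 0.05 and 0 by DESeq2 or limma-voom. The smallest p among regulators was that of Lpin1, at 0.72 with an adjusted p of 0.128, and among ketone body genes that of Oxct1, at 0.62 with an adjusted p of 0.203. Among mitochondrial genes it was that of Nudt7, at -0.39 with an adjusted p of 0.331, and among peroxisomal genes that of Hsd17b4, at -0.75 with an adjusted p of 0.169. Among further PPARalpha targets it was that of Hilpda, at 0.91 with an adjusted p of 0.294, and in the respiratory chain that of Ndufs3, at 0.28 with an adjusted p of 0.510. Duodenal medians were 0.04 for regulators, 0.18 for ketone bodies, 0.02 for mitochondrial oxidation, -0.25 for the peroxisome, -0.02 for further targets and 0.10 for the respiratory chain. Of the difference between tissues, Slc16a6 was the 1 gene called of 86, and DESeq2 and limma-voom called 1 each. The smallest p elsewhere was that of Ppard, at 0.56 with an adjusted p of 1 for regulators, and that of Acad11, at 0.56 with an adjusted p of 1 for mitochondrial genes. For peroxisomal genes it was that of Hsd17b4, at 0.64 with an adjusted p of 1, for further targets that of Hilpda, at -1.16 with an adjusted p of 1 and for the respiratory chain that of Cox5b, at 0.26 with an adjusted p of 1.

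Between the tissues of controls the medians of the neighbouring lists lay below 0, like that of the 31 genes. Of all genes tested, 18.7% were called lower and 17.1% higher in control ileum. Regulators were called in both directions. The respiratory chain and citrate cycle, which take up the products of oxidation, had 25 of 31 lower and 0 higher in control ileum, with a median of -0.64; the smallest p were those of Mdh2 (-2.18, adjusted p = 8.98e-07), Cox5b (-1.61, adjusted p = 1.32e-06), Uqcrc1 (-1.25, adjusted p = 1.17e-05) and Sdhc (-0.84, adjusted p = 2.45e-05). Their summed level was 9132 to 10574 CPM in control ileum and 15050.5 to 16479.6 CPM in control duodenum. Further mitochondrial oxidation genes had 13 of 18 lower and 0 higher in control ileum, with a median of -0.63, led by Acad11 (-1.34, adjusted p = 2.31e-05), Crat (-1.42, adjusted p = 6.87e-05), Acsl1 (-1.06, adjusted p = 1.06e-04) and Nudt7 (-0.90, adjusted p = 2.31e-04). Peroxisomal genes had 17 of 22 lower and 1 higher in control ileum, with a median of -0.73, among them Slc27a2 (-2.10, adjusted p = 3.31e-06), Acaa1a (-1.01, adjusted p = 1.27e-04) and Acot8 (-0.91, adjusted p = 1.56e-04). Regulators had 9 of 17 lower and 5 higher in control ileum, with a median of -0.42, led by Prkaa2 (1.15, adjusted p = 3.86e-06), Creb3l3 (-2.07, adjusted p = 1.09e-05), Prkaa1 (0.95, adjusted p = 1.56e-05) and Esrra (-0.88, adjusted p = 1.85e-05). Ketone body genes had 3 of 8 lower and 1 higher in control ileum, with a median of -0.40, the called genes including Slc16a6 (-2.53, adjusted p = 6.79e-09), Acat1 (-0.75, adjusted p = 3.49e-04) and Slc16a7 (0.76, adjusted p = 0.00872). Slc16a7 lost its call with epithelial scaling (adjusted p = 0.152). Further PPARalpha targets had 9 of 20 lower and 2 higher in control ileum, with a median of -0.43, led by Gpd1 (-1.78, adjusted p = 1.97e-06), Fads1 (-1.06, adjusted p = 2.81e-05), Ephx2 (-2.43, adjusted p = 3.48e-05) and Fabp1 (-2.76, adjusted p = 3.59e-05). No test between the lists was made.

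Promoter windows of 300 bases were at hand for 24 of the 31 genes. The direct repeat AGGTCANAGGTCA was searched on both strands with up to 2 mismatches. It was found in 2 of the 25 windows of these genes, those of Slc25a20 and Etfa, against 3.86% of all 32851 promoter windows at hand. The element TCAAGGTCA, which estrogen-related receptors bind, was found with up to 1 mismatch in 3 of the 25 windows. These were those of Ech1, Acaa1b and Bdh1, against 7.458% of all promoter windows. The 2 motifs share the letters AGGTCA, so a stretch can count for both. A match is a description of the letters, and elements outside these windows were not searched.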

How the data were processed

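Total RNA of duodenum and ileum was sequenced after removal of ribosomal RNA with a stranded kit, per the labels' protocols. The authors deposited whole-number read counts per gene, not normalized, for 16 libraries. Per the submitters' processing notes the genome build was mm39, and the tools were HTSeq 0.6.1p1, STAR 2.5.3a, Bowtie2 2.2.8, cutadapt 1.10 and bcl2fastq 2.20.0.422; the notes give no role or order, and neither the annotation release nor the strand setting of the counting was found in them. Ensembl identifiers were matched to symbols for 52083 of 55359 genes, which held 98.3% of counts; 3276 were unmatched and stayed in the tests.

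From there, libraries were grouped by the labels' genotype and tissue. Genes were filtered with filterByExpr, scaled by TMM and tested with edgeR's quasi-likelihood test (edgeR 4.0.16, limma 3.58.1, R 4.3.3; robust, prior count 0.125) in separate fits for mutant against control duodenum, mutant against control ileum, control ileum against control duodenum, and the difference of the genotype effects, where all 16 libraries entered. Benjamini-Hochberg adjustment covered all genes of a fit, and calls were made at an adjusted p under 0.05. Standard errors are the absolute log2 fold change over the square root of F, and intervals cover 95%. CPM values come from TMM factors over all 16 libraries. Alternatives were DESeq2 1.42.0 (its test and its size factors), limma-voom, no filter on low counts, each library left out, scaling to epithelial markers, acinar and smooth muscle scores as covariates (from log2 CPM with a pseudocount of 1), and the animal as a replicate block. In the tissue comparison, epithelial scaling and the use of mutant libraries were added after the data were seen. The scripts were tested on simulated data.

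The tissues are paired by animal, per the labels; deviations of the tissues of an animal from their group means correlated at 0.117 to 0.378 across genes, in 7 of 8 animals above the correlation with any other animal; for NFVCT190 another animal reached 0.253, against 0.162. Animals are the replicates, so p-values measure the spread between 4 animals a group. The main fits of the tissue comparison and of the difference of genotype effects treated the tissues of an animal as independent. Only the fits with the animal as a replicate block paired them. Near copies were sought among GENCODE vM21 transcripts at 85% identity or more over 200 bases or more. All 31 genes are named, and those called in any comparison have a value for every library; of other lists the called genes are named, up to 4 of smallest p, or else the 1 of smallest p, and a few genes of these lists are not reported here. The 31 genes and all lists were chosen with earlier results of these data known. Promoter windows are those of RefSeq, build GRCm38.p6, and 24 of the 31 genes are described with one; their coordinates are not of the authors' build. Depth ran from 8213889 to 35076714 counts, and Cyp4a10 had too few counts to be tested in the ileum.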

Additional observations from a re-analysis of the deposited data

Results flagged for a closer look

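In 8 of 114 gene and group combinations, each with 4 libraries, 1 library stood far from the other 3. Chance alone gives about 1 in 20 such groups. Cpt2 stood high in control duodenum of NF29, at 219 CPM, and in control ileum of NF17, at 108 CPM. Acadl was high in control duodenum of NF29, at 151.6 CPM, and Eci1 in control duodenum of NF152, at 51.3 CPM. Acaa1b was high in mutant ileum of NFVCT38, at 4.46 CPM. Ech1 was low in mutant duodenum of NFVCT190, at 104 CPM, and Etfa in mutant duodenum of NFVCT153, at 82.2 CPM. Etfdh was low in control duodenum of NF32, at 123 CPM.

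The genotype effect on Slc16a6, a ketone body transporter outside the 31 genes, differed between ileum and duodenum. The difference was 1.26 on the log2 scale (adjusted p = 0.0135, edgeR's quasi-likelihood test over 15882 genes). In the ileum all 4 mutants lay above all 4 controls, which are other animals.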

How the results depend on the processing

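In the duodenum 58 genes were called; the number was 169 with no filter on low counts, 310 by DESeq2, 219 with epithelial scaling, 31 without the libraries of highest acinar share (mutant NFVCT190, control NF17) and 27 to 61 without 1 library (27 without mutant NFVCT38, 28 without control NF17, 38 without control NF29). In the ileum 490 were called, against 1096 with no filter, 875 by DESeq2, 16 with the smooth muscle covariate and 272 to 472 without 1 library (272 without mutant NFVCT38, 277 without control NF32, 293 without control NF17). The smooth muscle score did not overlap between the genotypes there. Of the listed genes 0 were called in the duodenum under every alternative, although 15 had an unadjusted p under 0.05 with epithelial scaling; in the ileum 4 were called with no filter, 1 by DESeq2 and 0 to 1 without 1 library. For the difference of the genotype effects 7 genes were called, against 15 with no filter, 38 by DESeq2, 16 with the animal as a replicate block and 3 to 13 without 1 library; it was 3 without control ileum NF32, mutant ileum NFVCT38 or control duodenum NF29, 4 without mutant ileum NFVCT27 or NFVCT153 or mutant duodenum NFVCT27 or NFVCT38, 11 without mutant ileum NFVCT190 and 13 without mutant duodenum NFVCT153. Listed genes stayed at 0 there. Between the tissues of controls 23 listed genes were called, against 11 between those of mutants, 22 with the replicate block and 19 to 22 without 1 control library. Angptl4 reversed to -0.49 (adjusted p = 0.652) between the tissues of mutants; the cause was not tested. The block changed no other call of a listed gene than that of Pdk4. Among effects on listed genes over all alternatives, the sign changed in 31 of 435 values in the duodenum, in 34 in the ileum, in 20 of 609 for the difference and in 7 of 434 between tissues. Cyp4a10, Cyp4a14 and Cyp4a31 had too few counts to be tested in the ileum; whether depth or absence of the transcripts set this was not tested.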

Other observations

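Together the 31 genes took 0.246% to 0.330% of counts in mutant ileum, 0.256% to 0.316% in control ileum, 0.256% to 0.447% in mutant duodenum and 0.327% to 0.418% in control duodenum. Acot12, an acetyl-CoA thioesterase that was looked at after its values were seen, had 23.3, 14.6, 9.97 and 9.71 CPM in mutant duodenum and 34.7, 64.1, 27.6 and 31.6 CPM in control duodenum, without overlap, at a log2 fold change of -1.46 that did not pass (adjusted p = 0.207). In the ileum, Acot12 had 1.05, 9.12, 1.80 and 2.14 CPM in mutants and 14.2, 7.42, 13.8 and 9.82 CPM in controls.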
